A study of Mus musculus with 4 samples.

Results

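Among the 56605 distinct probes on an Agilent mouse expression array, 4556 (8.05%) are named in the design by an accession that starts with AK followed by digits, and these AK probes are described here. A probe entered the set by that name alone and not by its measured value. The set itself was chosen with earlier results of these data known. After 5 probes with a non-uniform spot were left out, 4551 remained. The 4556 probes stand for 4450 clone accessions, of which 105 had more than 1 probe. The cells were S-180, a mouse sarcoma line, grown in medium with 10% serum. For 2 samples the cells got no drug (control), and for the other 2 they were kept for 12 h with fluoxetine at 20 µM, an antidepressant that blocks serotonin reuptake. All 4 samples were the same line in the same medium, and the labels give no word on a vehicle for the control. The labels call the samples of a group biological replicates, without saying whether the cultures were separate, so p-values measure only the spread between these samples, which may be technical. The samples are called control 1, control 2, fluoxetine 1 and fluoxetine 2.

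An AK accession marks a cDNA sequence submitted through the Japanese DNA database, and most mouse ones come from the RIKEN collection, in which capped, full-length RNA was copied and cloned. That collection is known for the many transcripts it holds that code for no protein, lie inside introns of coding genes or run antisense to them, along with forms of coding transcripts that end at another site. RefSeq names starting with NM_ are by contrast curated messenger RNAs. RefSeq's table of genes (assembly GRCm38.p6) does not pair AK accessions with symbols, so none (0 of 4450) could be matched. Whether a clone belongs to a known gene was therefore not examined. The clones are given by accession, and their genes, positions and probe sequences were not analysed here.

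The array scanner gave each spot an intensity on a linear scale, corrected for background, which is called the signal here. The 75th percentile of the signal lay between 554 and 673 on the 4 arrays, and each array's log2 signals were set relative to it before arrays were compared, so signals printed below are those before this scaling and changes are those after it. Of the 8 mesenchymal markers, 5 were well above background on all arrays. These were Vim (13909 to 22297), which encodes the filament vimentin, S100a4, Fn1, Sparc and Col1a1. Col1a2 was so in the controls only, and Thy1 and Pdgfrb on no array. Sparc (−0.66 on the log2 scale) and Col1a2 fell with fluoxetine, and 0 of the mesenchymal markers rose. Of the 4 epithelial markers, Epcam and the keratin genes Krt8 and Krt18 were well above background on all arrays and Cdh1, the cadherin of epithelia, on none. The 6 leukocyte markers, of which 3 were detected on all arrays, had a summed signal of 11255 and 11392 in the controls and of 21586 and 21954 with fluoxetine. Most of that sum came from Cd68, which rose (1.36 on the log2 scale), while 1 probe of Cd3e also rose (0.49) and 1 of Itgam fell (−1.99). For both Cd3e and Itgam another probe of the gene changed in the opposite direction. The pan-leukocyte gene Ptprc and the macrophage gene Adgre1 were well above background on no array. The 3 erythroid markers, of which Hba-a1 was detected on all arrays and Alas2 on none, summed to 418 and 357 in the controls and to 1362 and 1496 with fluoxetine. The part of other cells in the results on AK probes was not tested.

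Most AK probes gave no signal well above background. On control 1 30.7% of them were well above it, on control 2 33.5%, on fluoxetine 1 29.1% and on fluoxetine 2 31.0%. The shares of the groups overlapped, since fluoxetine 2 lay above control 1. For NM_ probes the shares were higher on every array, from 61.3% to 62.7%. Over the 4 arrays together, 2707 AK probes (59.5%) were well above background on none and 1108 (24.3%) on all, against 33.0% and 58.2% of NM_ probes. Another 96 AK probes were detected in both controls and with fluoxetine in neither sample, and 28 showed the opposite pattern. The AK probes seen on all arrays were also dimmer than the NM_ probes seen on all arrays, with a median signal of 104 against 932. None was saturated.

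The comparison of fluoxetine with control asked which transcripts differ in amount after the drug, and AK probes were mostly lower with it. A probe entered the test when at least 1 group had it well above background in full, as was so for 1377 AK probes (30.3%). In limma, with Benjamini-Hochberg adjustment over all 28270 tested probes, an AK probe was called at an adjusted p under 0.05. Of the 1377, 452 fell (32.8%), 74 rose (5.37%) and 851 were not called. Over all tested probes of the array 14.5% fell and 12.2% rose. Both fluoxetine values lay below both control values for 786 AK probes (57.1%, against 39.7%) and above them for 237 (17.2%, against 33.6%).

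Since a probe can enter the test through the group where it is high, the 1108 AK probes well above background on all 4 arrays are given apart. Of these, 349 fell (31.5%), 61 rose (5.51%) and 698 were not called, while 13.6% of all probes seen on all arrays fell and 12.6% rose. A fall of at least 2-fold was called for 132 of them (11.9%, against 3.46% of all such probes) and a rise of at least 2-fold for 8 (0.722%, against 1.57%). Their log2 change had a median of −0.32, with an interquartile range from −0.76 to 0.07. For the 17735 NM_ probes seen on all arrays the median was 0.03, and the interquartile range ran from −0.23 to 0.30. On the scaled log2 axis, the median of the 1108 AK probes was −2.32 in each control and −2.73 in each fluoxetine sample. Each fluoxetine array set against each control array gave a median AK change between −0.35 and −0.31, with 69.0% to 72.2% of the probes lower with fluoxetine. Arrays of the same group lay closer. The typical (median) AK probe differed by 0.16 between the controls, by 0.15 between the fluoxetine arrays and by 0.46 between the group means. NM_ probes seen on all arrays had the same pattern, with 0.1, 0.1 and 0.27.

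The number of calls depended on which arrays were used. Limma called 0 AK probes without control 1, without fluoxetine 1 or without fluoxetine 2, and 79 higher and 260 lower without control 2. This held for the whole array, where the first 3 settings gave 0 calls among 28270 probes and the last called 6.13% higher and 7.53% lower. With all arrays in limma, 607 of the 1377 tested AK probes were lower and 131 higher at an unadjusted p under 0.05. Over all 28270 tested probes, 6957 were lower and 5681 higher at this cut. The median change of the 1377 tested AK probes was −0.37, and −0.40 to −0.36 when each array was left out in turn. The same 1377 probes were kept each time, so these medians carry the way probes entered the test. Of them, 175 were well above background in full in the controls only (median −1.27) and 94 with fluoxetine only (0.61). For the 1108 AK probes seen on all arrays, single pairs of arrays gave −0.35 to −0.31, as said above.

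AK probes are dim, so the 1108 seen on all arrays were set beside NM_ probes of equal brightness that were also seen on all arrays, in steps of 1 log2 unit of the mean signal. In 9 of 10 steps the share of AK probes called lower was larger than that of NM_ probes, and the median change was below it. The other step was the dimmest, with 22 AK probes and a median of −0.14 for both kinds. There 0% of AK probes and 5.8% of NM_ probes were called lower. In the brightest step the shares were close, 5.71% of 35 AK probes and 4.69% of NM_ probes. Between a signal of 64 and 128, 34.5% of 319 AK probes and 11.8% of 1750 NM_ probes were called lower, with medians of −0.42 and −0.03. Between 128 and 256, 43.7% of 197 AK probes were called lower against 10.6% of 1832 NM_ probes, with medians of −0.39 and 0.05. Between 512 and 1024, 21.8% of 55 AK probes rose, near the 20.0% of NM_ probes, while 27.3% fell against 10.6%, with medians of −0.01 and 0.06. When the NM_ steps were weighted by the number of AK probes in each, 10.5% of NM_ probes were lower and 12.5% higher, beside 31.5% and 5.51% of AK probes. The weighted difference in median change was −0.31, and −0.40 over all tested probes. These values are a description without a test.

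The background signal before scaling was also lower on the fluoxetine arrays. The 308 negative control spots had a median signal of 6.12 and 4.99 on the control arrays and of 4.39 and 4.48 on the fluoxetine arrays, and the 2707 AK probes never above background had nearly the same medians. The 75th percentiles used for scaling were 673 and 632 in the controls and 554 and 643 with fluoxetine. Relative to them, the background was lower on fluoxetine 2 than on either control, and on fluoxetine 1 near that of control 2. With no filter on dim probes, the median change after scaling was −0.22 for all 4551 AK probes and −0.16 for all 56558 probes. The part of the background in the changes of the dimmest probes was not tested. At a mean signal of at least 256, far above the background signals, 78 of 269 AK probes fell (29.0%) and 33 rose (12.3%), and their median change was −0.18. The 12776 NM_ probes this bright had 8.37% lower, 16.5% higher and a median of 0.04. At a signal of at least 1024, 20 of 96 AK probes fell (20.8%), 10 rose (10.4%) and 66 were not called, with a median of −0.16. For the 8557 NM_ probes this bright the shares were 7.42% lower and 14.7% higher, with a median of 0.04.

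The 8 largest falls among AK probes seen on all arrays lay between 3.40-fold and 4.28-fold. AK161948 had signals of 145 and 111 in the controls and of 29.5 and 25 with fluoxetine, a log2 change of −2.10 ± 0.21 (SE from limma, n = 2 per group, adjusted p = 0.0162). AK144838 had signals of 128 and 140 in the controls and of 29.1 and 28.8 with fluoxetine (−2.08 ± 0.14, limma adjusted p = 0.0141). In both clones the fluoxetine values lay not far above the dimmest signals that were detected (17.7 and 15.8 on the fluoxetine arrays). AK084110 was brighter, at 446 and 361 in the controls and 80.9 and 114 with fluoxetine (−1.93 ± 0.15, limma adjusted p = 0.0143). AK137648 had the smallest error of the 8, with 248 and 261 in the controls and 63.0 and 74.4 with fluoxetine (−1.77 ± 0.09, limma adjusted p = 0.0141). The other 4 were AK144564 (−1.93), AK051632 (−1.91), AK144341 (−1.83) and AK030805 (−1.79). Of these, AK030805 (27.1 and 27 with fluoxetine) and AK051632 (28.7 on fluoxetine 1) also lay not far above the dimmest detected signals. Groups of these 8 probes do not overlap by the way they were picked. Under another background correction (normexp on the median signal, with quantile normalization) these 8 changes were smaller, from −1.40 for AK084110 to −0.64 for AK161948. Over all 349 falls on all arrays the change ran from −2.10 to −0.36 with a median of −0.91.

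Rises were fewer and smaller. The 8 largest among AK probes seen on all arrays lay between 2.06-fold and 2.97-fold, and they are all the 8 that rose at least 2-fold there. AK139118 stood first, with signals of 298 and 337 in the controls and of 844 and 883 with fluoxetine (1.57 ± 0.13, limma adjusted p = 0.0149, n = 2 per group). AK158152 was dim, at 30.9 and 43.4 in the controls and 101 and 88.7 with fluoxetine (1.5 ± 0.27, limma adjusted p = 0.0342). AK008708 had nearly equal values within each group, 47.9 and 48.9 in the controls against 103 and 108 with fluoxetine (1.25 ± 0.10, limma adjusted p = 0.0143). The brightest of the 8 was AK081218, with 871 and 829 in the controls and 1565 and 1753 with fluoxetine (1.09 ± 0.07, limma adjusted p = 0.0141). AK052773 was close to it, at 678 and 632 in the controls and 1206 and 1264 with fluoxetine (1.04 ± 0.09, limma adjusted p = 0.0149). The other 3 were AK133601 (1.17), AK037064 (1.14) and AK081838 (1.11). Under the same normexp setting the brighter clones kept nearly their size, with 1.47 for AK139118, 1.04 for AK081218 and 1.01 for AK052773, and the other 5 changes lay between 0.56 and 0.87. The 61 rises on all arrays ran from 0.32 to 1.57 with a median of 0.71, and their median signal of 288 was above that of the 349 falls, 118.

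Some AK probes were seen in 1 group only, and their change has only a lower bound, computed against the lowest signal that counts as well above background. Their direction follows from how they entered the test, so the counts are a description. Of the 96 seen on both control arrays and no fluoxetine array, 76 were called lower, as were 69.0% of all 630 probes of the array with this pattern, and the AK bounds ran from 1.48-fold to 9.45-fold. Of the 28 with the opposite pattern, 10 were called higher, against 40.6% of all 387 probes with it, with AK bounds from 1.24-fold to 3.0-fold. The largest bound was that of AK020544, at 89.4 and 334 in the controls and 3.73 and 3.89 with fluoxetine, at least 9.45-fold lower (limma adjusted p = 0.0223). Its control arrays lay far apart, and leaving out control 1 gave a bound of 18.9-fold, leaving out control 2 one of 4.73-fold. AK051538 had 165 and 78.0 in the controls and 3.84 and 4.58 with fluoxetine, at least 6.21-fold lower (limma adjusted p = 0.0144). AK043615 had 98.7 and 92.0 in the controls and 3.95 and 8.40 with fluoxetine, at least 5.21-fold lower (limma adjusted p = 0.0149). Of the probes seen with fluoxetine only, AK041461 was at 5.70 and 6.17 in the controls and at 33.2 and 101 with fluoxetine, at least 3.0-fold higher (limma adjusted p = 0.0260). Leaving out fluoxetine 1 gave a bound of 4.87-fold there, and leaving out fluoxetine 2 one of 1.85-fold. Under normexp the fitted log2 changes of these probes were also far smaller, such as −1.65 for AK020544, which lost its call there, and 0.79 for AK041461. AK085637 was at least 2.27-fold and AK016486 at least 1.89-fold higher (limma adjusted p = 0.0146 and 0.0223).

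None of the 8 brightest AK probes was called, with changes from −0.14 to 0.38 and limma adjusted p from 0.0676 to 0.700, and 2 had an unadjusted p under 0.05. AK140265 was the brightest of all, at 116885 and 110194 in the controls and 87404 and 101711 with fluoxetine (−0.14 ± 0.07). AK019465 came next, at 69960 and 73909 in the controls and 71680 and 79501 with fluoxetine (0.20 ± 0.10). After scaling, the groups of 7 of these 8 probes did not overlap, with 39.7% of all tested probes not overlapping and lower and 33.6% not overlapping and higher. The others were AK190531 (0.25), AK158840 (0.27), AK089156 (0.38), AK088963 (0.22), AK203298 (0.05) and AK134484 (−0.05). The AK set thus held bright probes beside its many dim ones.

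Repeated measurement of a clone was rare. A single AK probe, for AK133410, was printed 10 times on each array. Its spots ran from 1245 to 1705 on control 1, from 1419 to 1843 on control 2, from 1931 to 2757 on fluoxetine 1 and from 2548 to 3525 on fluoxetine 2. No spot of a fluoxetine array was below any spot of a control array, and the clone rose by 0.91 ± 0.10 (limma adjusted p = 0.0178, n = 2 arrays per group).

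Of the 105 clones with more than 1 probe, 10 had 2 tested probes, 33 had 1 and 62 had none. In 4 of the 10 both probes had a change below 0, in 2 both had a change above 0, and in 4 the probes differed in sign. The changes of AK018074 were above 0 at both probes, at 0.35 ± 0.10 (limma adjusted p = 0.0802) and 0.62 ± 0.12 (limma adjusted p = 0.0384). Those of AK049951 were 0.35 and 0.54, of which the second was called (limma adjusted p = 0.0312). AK043615, given above, fell at both probes, which were not well above background with fluoxetine, by at least 5.21-fold and at least 2.92-fold. AK079287 differed between its probes. The dimmer probe, at 87.9 and 75.2 in the controls and 23.9 and 22.7 with fluoxetine, where 1 array was well above background, fell (−1.68 ± 0.14, limma adjusted p = 0.0146, and −0.63 under normexp). The brighter one, at 2284 and 2430 in the controls and 2905 and 3039 with fluoxetine, was not called (0.46 ± 0.11, limma adjusted p = 0.0567). The probes of AK144755 were called in neither direction (−0.16 and 0.29). Thus 2 probes that share a clone name did not always give the same change.

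AK probes from different series of the manufacturer's probe names were not alike. The prefix A_65 had the largest share called lower, 46.2% of 78 tested, with a median of −0.68. Probes with the prefix A_66 had the smallest, 19.2% of 307 tested, with 8.79% higher and a median of −0.10. The shares lower were 37.0% for A_51, 35.8% for A_52 and 35.9% for A_55. NM_ probes of the same 5 series had 7.79% to 11.1% lower and medians from −0.01 to 0.07, so every series of AK probes had a larger share lower than its NM_ counterpart. Tested probes include some that entered through 1 group only, so medians of AK probes seen on all 4 arrays are added. They were −0.31 for A_51, −0.34 for A_52, −0.40 for A_55, −0.65 for A_65 and −0.10 for A_66. For NM_ probes seen on all arrays they ran from −0.01 to 0.07. These differences between series were not tested.

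The number of an AK accession follows the order of submission. In each of the 8 number ranges below 180000, between 26.7% and 39.7% of tested AK probes were called lower, with medians from −0.51 to −0.25. The 38 tested probes with numbers of 180000 and above had 4 called lower (10.5%) and a median of −0.02, a difference that was not tested. Among AK probes seen on all 4 arrays the medians ran from −0.40 to −0.23 in the 8 lower ranges, with −0.07 in the last. By place on the array, the median change of tested AK probes was −0.36, −0.30, −0.39 and −0.46 in 4 equal blocks of rows from first to last. For those seen on all 4 arrays it was −0.32, −0.27, −0.36 and −0.40.

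Other kinds of probe allow a comparison. Of 9050 probes named by an Ensembl transcript (ENSMUST), 3903 were tested, of which 27.0% fell and 6.38% rose, with a median change of −0.30. Among Ensembl probes seen on all 4 arrays 26.4% fell and 6.33% rose. Their median was −0.28, beside −0.32 for AK probes, so Ensembl probes were lower as well. A list of 28 non-coding RNA genes with RefSeq names was set beside them, of which 24 had a matched probe and 19 were tested. In it 6 fell, 1 rose and 12 were not called, with a median of −0.39. Over all tested probes 14.5% fell and 12.2% rose, with a median of −0.04. The genes that fell were Snhg1 (−0.41), Snhg3 (−0.56), Snhg5 (−0.69) and Snhg12 (−0.74), which host small nucleolar RNAs, with Miat (−0.65) and Pvt1 (−0.42). The member that rose was Neat1, the scaffold RNA of nuclear paraspeckles, at 406 and 406 in the controls and 869 and 1016 with fluoxetine (1.34 ± 0.08, limma adjusted p = 0.0141). Kcnq1ot1, an imprinted antisense RNA, had a change of −1.36 ± 0.31 and did not pass (limma adjusted p = 0.0510). Rian and Ftx were well above background on no array.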

How the data were processed

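Total RNA of 4 S-180 samples was labelled with Cy3 (10 ng per sample, per the labels) and hybridised to 1-colour Agilent arrays. The authors read the scans with Agilent's Feature Extraction (version 12.1.0.3, per the file headers), and what they deposited is the intensity of every spot, linear and not logged. The processed signal used here is background-corrected and not scaled between arrays. Deposited yes-or-no marks, another kind of column, gave detection (well above background). Later steps by the authors are not given in the sources used here. Precision is limited by the number of arrays.

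Control spots and spots marked non-uniform on any array were left out (47 probes), repeated spots were averaged on log2, and the 75th percentile of each array was subtracted (R 4.3.3). Group was the only term in limma 3.58.1 (lmFit, eBayes), with Benjamini-Hochberg adjustment over 28270 probes. With 2 arrays against 2, an exact two-sided permutation test cannot go below p = 0.333, so none is given. Errors are limma's standard errors. On simulated data with known changes the script returned their mean size. At 2 arrays per group it called most changes of 2 on the log2 scale, but few of those of 0.5, 1 or −1. Its share of false calls there lay above the adjusted p threshold used for calls. The simulated data held a far smaller share of changed probes than was called in the real data. Since the adjustment depends on that share, the recovery there need not hold for the real data.

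Named clones are the 8 largest rises and falls among called probes above background on all arrays with groups that do not overlap, the 3 largest bounds in each direction, the 8 brightest probes, and the 4 brightest clones with several tested probes. AK043615's second probe and AK133410 were chosen after their values were seen. The AK set, the lists and the tests were chosen with earlier results of these data known. Alternatives covered scaling, background correction, filters, limma-trend, a replicate block and each array left out. All arrays share a slide and scan, and arrays of a group were neighbours on it, so place and group cannot be told apart.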

Additional observations from a re-analysis of the deposited data

How the results depend on the processing

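The median change of tested AK probes was below 0 under every setting tried, and lay from −0.40 to −0.14. It was −0.24 with quantile normalization, −0.14 with normexp on the median signal plus quantile normalization (chosen after seeing the data), −0.22 with no filter on dim probes and −0.32 with only probes well above background on all 4 arrays. At equal brightness, AK minus NM_ was −0.40, and −0.21, −0.10 and −0.31 under the last 3 of these settings, and −0.39 to −0.37 with each array left out in turn. Narrower brightness steps gave −0.40. The AK median of −0.22 with no filter stood beside −0.09 for NM_ probes and −0.16 for all probes. In that setting 59.5% of the 4551 AK probes were well above background on no array. With no filter limma called 0 AK probes in either direction, and 0 of all 56558 probes. With each array left out, calls ran from 0 to 79 higher and from 0 to 260 lower. Labels number the replicates 1 and 2 in each group without saying that they pair, and over tested probes the deviations of same-numbered samples correlated at −0.11. With the replicate block limma called 0 higher and 0 lower AK probes, and 0 of all 28270 tested probes. With crossed numbers (chosen after seeing the data) 40 of 1377 AK probes were called higher and 290 lower. Over all tested probes these numbers gave 4.79% higher and 7.72% lower. The counts of calls stayed within 1.5 times under the scalings, normexp, limma-trend, non-uniform spots kept and the filter on all 4 arrays. The share of AK probes detected on all arrays was 24.3%, and 40.9% with the weaker mark of a positive and significant signal. The planned normexp on mean signal was not run, since that column is not in the files used here. Of the 39 named probes none that was called changed direction. All 26 that were called lost the call with no filter, with the block, and without control 1, fluoxetine 1 or fluoxetine 2. Fewer lost it without control 2 (3), with crossed numbers (4) and with normexp (2), and the cause was not tested. Signals near 20 lie at the detection limit, which bounds folds of dim probes.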
